A study of Mus musculus with 21 samples.

Results

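The genes that encode histone lysine methyltransferases and demethylases, other than Dot1l itself, Kmt2a, Ezh1, Ezh2, Jmjd1c and Kdm2b, were followed through sorted mouse bone marrow cells with and without Dot1l. The set holds 39 listed genes, of 18194 genes on the arrays in all, and 37 of them had a probe set annotated to that gene alone. These were 23 methyltransferase genes, the related Kmt2e counted among them, and 14 demethylase genes, read by 106 probe sets. Each gene was represented by its probe set of highest mean log2 intensity over the 21 arrays. Suv39h1 and Ash1l had no such probe set and are not described further. Kmt5a, Nsd2, Nsd3, Kmt5b and Kmt5c were listed under the older symbols Setd8, Whsc1, Whsc1l1, Suv420h1 and Suv420h2.

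Cells came from C57/BL6 mice. The genotype given as Dot1 wt/wt x Mx-Cre, with a wild type Dot1l gene, gave control LSK (6 arrays) and control GMP (5 arrays). Deleted LSK (6 arrays) and deleted GMP (4 arrays) came from mice given as Dot1l fl/fl x Mx-Cre, whose cells had become Dot1l -/-. All mice, controls included, carried Mx-Cre and had been injected with pIpC, a double-stranded RNA mimic that induces interferon. Mx-Cre is driven by an interferon-inducible promoter and is not restricted to blood cells, so deletion need not be confined to the sorted populations. LSK cells carry Sca-1 and Kit but no lineage markers and include stem cells and multipotent progenitors, and GMP are granulocyte-macrophage progenitors. Ages, sexes and the time from injection to sorting were not used here. Nothing in the labels ties each array to a mouse of its own, so p-values measure only the spread between these samples, which may be technical.

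Methyl groups on histone lysines are added by enzymes with a SET domain and removed by flavin-dependent (KDM1) or JmjC-domain demethylases, and each enzyme prefers certain residues. H3K4 methylation marks promoters and enhancers, H3K36 methylation marks transcribed gene bodies, H3K9 and H4K20 methylation mark silent chromatin, and H3K27 methylation is laid down by Polycomb. Dot1l is unusual in that it methylates H3K79 without a SET domain. Several of these genes are known in blood: Kmt2c and Setd2 are mutated in leukaemia, Nsd1 and Kdm5a are partners of NUP98 in leukaemic fusions, and Kdm1a is required for normal haematopoiesis.

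Some arrays stood apart from the others, and this touches the results below. The upper quartile of the log2 intensities was 6.60 to 6.76 on control LSK and 6.19 to 6.57 on control GMP arrays, with no overlap. It was 6.70 to 6.78 on 5 of the deleted LSK arrays but 6.18 on K1272, and 6.71 and 6.77 on deleted GMP K1190 and K1272 but 6.27 and 6.31 on K1359 and K1421. The mean log2 level of 8 measured LSK marker genes was 8.499 to 9.12 on control LSK arrays and 5.56 to 6.54 on all GMP arrays, while 7 measured GMP marker genes averaged 11.38 to 12.39 on GMP and 7.38 to 10.83 on LSK arrays. Deleted LSK array K1272 went against its label, with a mean of 4.65 for the LSK markers, below every GMP array, and the highest means among deleted LSK arrays for T cell (4.92), erythroid (8.21) and endothelial and stromal (5.39) markers. Deleted LSK K1359, at 9.05, was the one deleted LSK array inside the control range of the LSK markers. Deleted GMP arrays K1190 and K1272 were the closest of all 210 pairs of arrays, at a Spearman correlation of 0.982 and a median difference between probe sets of 0.198 log2 units either way; the next closest, control LSK K1601 and K1603, had 0.97 and 0.229. The 2 probe sets of Dot1l did not separate the genotypes: the brighter read 6.08 to 6.93 on control and 5.95 to 7.01 on deleted LSK arrays, and 6.55 to 6.95 on control and 5.62 to 6.60 on deleted GMP arrays. No source used here places these probe sets inside or outside the deleted part, so they do not check the labels.

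Between control GMP and control LSK the set was lower as a whole in GMP. Of the 37 genes, 31 were lower and 6 higher, with a median log2 difference of -0.51, against 0.28 over all genes, of which 34.2% were lower. Differences were tested with limma over all 18194 genes with Benjamini-Hochberg adjustment and called at an adjusted p under 0.05. By that rule 6 of 37 were called, and 12.0% of all genes were. The 5 that fell were the H3K4 methyltransferase gene Kmt2c, the H3K4 demethylase genes Kdm5a and Kdm5b, the H3K36 methyltransferase gene Nsd1 and the H3K9 methyltransferase gene Ehmt1, where 4.95% of all genes were called lower. One gene rose, Kdm7a, which encodes a demethylase of H3K9 and H3K27, where 7.03% of all genes were called higher. An unadjusted p under 0.05 was reached by 14 of 37, close to the 33.8% of all genes. Centring the arrays left 32 of 37 lower and a second quantile normalization 29, with medians over all genes of 0.22 and 0.20. Markers of other cells moved too: all 4 measured erythroid markers were lower in control GMP, 1 of them called, with means of 4.61 to 5.51 against 5.62 to 7.69 in control LSK, and 7 of 8 mature neutrophil markers, 2 of them called, with 7.73 to 8.12 against 7.51 to 11.85. Higher in control GMP were 4 of 5 measured B cell, 3 of 3 T cell and 4 of 5 endothelial and stromal markers, with 0 called. The medians of these 3 lists were 0.41, 0.76 and 0.39, against 0.28 over all genes. Their part in the members' values was not tested. In sorted cells measured in bulk, fewer cells of a kind and less RNA per cell cannot be told apart.

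Among the called genes, Kmt2c, Ehmt1 and Kdm5b were lower in control GMP and Kdm7a was higher. The start-site regions of these 4 of the 6 called genes are shown because only they had a promoter window. They are taken from RefSeq promoter windows on GRCm38.p6, trimmed to the bases upstream of the gene's annotated start, and CG dinucleotides are in capitals. Kmt2c lies at chr5:25498856-25499033 (minus strand), Ehmt1 at chr2:24919644-24919859 (minus), Kdm5b at chr1:134559928-134560177 (plus) and Kdm7a at chr6:39206774-39207023 (minus).
Kmt2c: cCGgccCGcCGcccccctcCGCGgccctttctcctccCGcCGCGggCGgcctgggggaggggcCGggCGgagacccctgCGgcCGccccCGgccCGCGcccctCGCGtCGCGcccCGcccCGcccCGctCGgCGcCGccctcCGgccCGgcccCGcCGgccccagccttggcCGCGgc
Ehmt1: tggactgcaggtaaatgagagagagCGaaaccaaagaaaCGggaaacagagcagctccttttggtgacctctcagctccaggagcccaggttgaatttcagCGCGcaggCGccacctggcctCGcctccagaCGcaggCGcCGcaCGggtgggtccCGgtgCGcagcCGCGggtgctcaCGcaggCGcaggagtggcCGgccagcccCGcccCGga
Kdm5b: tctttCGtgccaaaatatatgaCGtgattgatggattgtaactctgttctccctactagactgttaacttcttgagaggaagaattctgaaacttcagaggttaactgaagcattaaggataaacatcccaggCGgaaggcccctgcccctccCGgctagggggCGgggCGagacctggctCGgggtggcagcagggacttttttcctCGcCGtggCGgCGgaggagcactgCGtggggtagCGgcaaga
Kdm7a: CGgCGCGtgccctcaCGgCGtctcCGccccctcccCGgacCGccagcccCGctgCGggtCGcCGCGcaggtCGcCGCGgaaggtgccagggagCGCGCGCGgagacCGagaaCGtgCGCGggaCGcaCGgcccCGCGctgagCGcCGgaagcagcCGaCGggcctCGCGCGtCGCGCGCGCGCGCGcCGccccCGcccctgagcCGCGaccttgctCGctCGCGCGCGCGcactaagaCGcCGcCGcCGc
Nsd1 and Kdm5a, also lower in control GMP, had no promoter window and are named only. In whole windows of 300 bases, from 250 before to 50 after the start, these genes held 56 (Kmt2c), 34 (Ehmt1), 17 (Kdm5b) and 65 (Kdm7a) CG dinucleotides, so the gene that rose and the gene of largest fall were both among the richest. Of 37 genes, 24 had a window, with a median of 26.5 CG dinucleotides and a range from 0 (Kdm4c) to 65 (Kdm7a). The median over the 27018 genes with a window, noncoding genes included, was 7. The GC box GGGCGG, searched on both strands, was in 17 of 24 windows (70.8%) and in 35.9% of all. The CCAAT box CCAAT was in 37.5% and 37.9%, and the TATA box TATAAA in 0 of 24 and 14.2%. A match is a description of the sequence only.

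Kmt2c encodes a large H3K4 monomethyltransferase that acts at enhancers. Its log2 intensity was 9.61, 10.54 and 11.85 (lowest, median, highest) on the 6 control LSK arrays and 8.75, 5.92, 6.90, 8.56 and 7.67 on the control GMP arrays K1601, K1602, K1603, K1604 and K1581. Every control GMP array lay below every control LSK array. Means were 7.56 ± 1.18 (SD, n = 5) and 10.58 ± 0.78 (n = 6), a log2 difference of -3.02 ± 0.62 (SE), 8.09-fold lower in GMP (limma adjusted p = 0.00498). Its other 3 probe sets were also lower, one of them at -3.26 ± 0.77 with an adjusted p of 0.0141 over all probe sets in limma. Such groups did not overlap, with GMP lower, for 4 of 37 members and 3.43% of all genes. The 4 were Kmt2c, Nsd1, Ehmt1 and Ehmt2, the last of which read 10.86 to 11.68 in control LSK and 7.59 to 10.74 in control GMP and missed the threshold (limma adjusted p = 0.0521).

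Nsd1 encodes an H3K36 dimethyltransferase. It read 10.74, 11.29 and 12.33 (lowest, median, highest) in control LSK and 8.53, 8.86, 6.96, 10.23 and 10.60 on control GMP arrays K1601, K1602, K1603, K1604 and K1581. The spread in GMP was wide, with K1581 just below the lowest LSK array and K1603 far below. The log2 difference was -2.31 ± 0.53 (SE; limma adjusted p = 0.00991), and the 3 other probe sets had the same sign, from -0.30 to -1.03. Ehmt1, whose product dimethylates H3K9 as a partner of Ehmt2, read 6.59, 7.31 and 7.79 in control LSK and 6.04, 6.30, 4.85, 5.74 and 4.96 in control GMP, in the same order of arrays. The difference was -1.73 ± 0.43 (SE; limma adjusted p = 0.0143), from the only probe set of that gene.

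Kdm5a and Kdm5b encode demethylases that remove H3K4 trimethylation. Kdm5a read 7.27, 8.50 and 9.80 (lowest, median, highest) in control LSK and 6.25, 7.61, 5.30, 5.44 and 6.82 on control GMP arrays K1601, K1602, K1603, K1604 and K1581. Only K1602 reached into the LSK range. The log2 difference was -2.20 ± 0.48 (SE; limma adjusted p = 0.00722), 4.59-fold, and a second probe set gave -2.04 ± 0.44 (limma adjusted p = 0.00878). Of the 5 other probe sets, 2 dimmer ones were higher in GMP. Kdm5b read 7.60, 8.80 and 9.61 in control LSK and 4.90, 7.74, 5.88, 6.81 and 6.85 in control GMP. Again K1602 alone overlapped the LSK arrays, and the log2 difference was -2.15 ± 0.55 (SE; limma adjusted p = 0.018), with all 3 other probe sets lower too.

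Kdm7a ran the other way but not on all its probe sets. The probe set used read 6.24, 6.42 and 6.80 (lowest, median, highest) in control LSK and 7.58, 7.22, 8.58, 8.29 and 6.89 in control GMP, without overlap, as for 1 of 37 members and 11.3% of all genes. The log2 difference was 1.25 ± 0.36 (SE; limma adjusted p = 0.03). Of the 4 other probe sets 2 were higher, at 0.96 ± 0.30 and 0.05 ± 0.23, and 2 were lower, at -1.21 ± 0.56 and -0.96 ± 0.71. With the mean of all its probe sets the difference was 0.02.

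**Figure D1:**
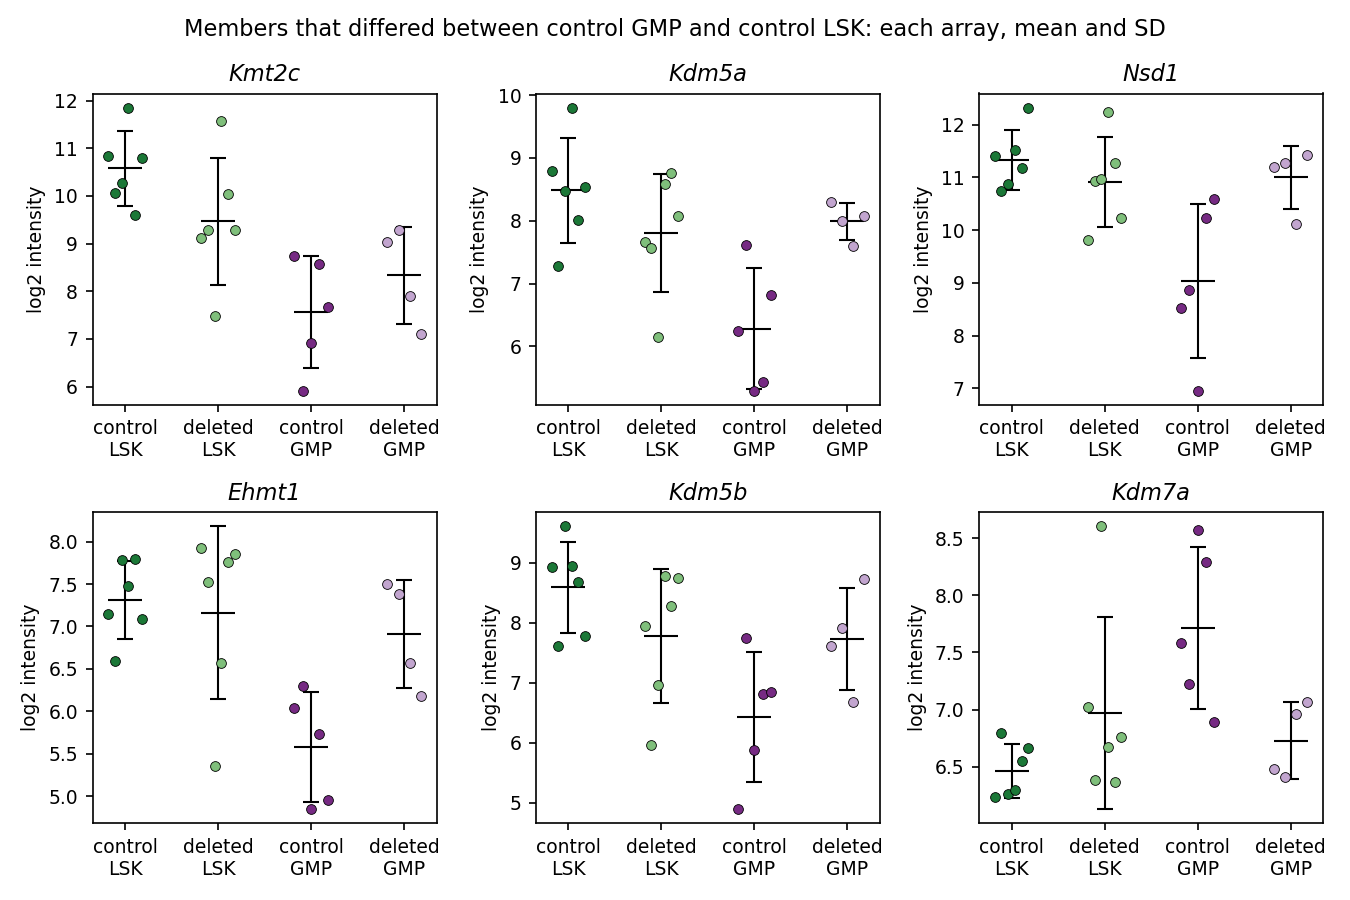
Log2 intensity (vertical axis) of the 6 members called between control GMP and control LSK, by group (horizontal axis), with 1 point for each array and the mean and SD as bars. Control GMP has the lowest mean for 5 genes and the highest for Kdm7a, whose top deleted LSK point at 8.61 is array K1272.

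The level of the set moved with the upper quartile of the array. Relative to the mean of control LSK, the median over the 37 members was -0.41 to 0.22 on control LSK arrays, -0.41 to -0.999 on control GMP arrays, and -0.94 on deleted LSK K1272. On deleted GMP K1359 and K1421, the arrays of low upper quartile, it was -0.89 and -0.49, against -0.19 and -0.10 on K1190 and K1272. The median over all genes went the other way, at 0.37 on deleted LSK K1272 and 0.34 on control GMP K1603. In control LSK every member but Setdb2 (mean 5.26) and Kdm1b (4.37) lay above the median over all genes, 5.39. Counts, medians and SDs over all genes are therefore not matched to the members for brightness. The part of the upper quartile in the difference between cell types was not tested, and control arrays of the 2 cell types do not overlap in it. With the upper quartile as a covariate, 27 of 37 members were lower in control GMP, with a median of -0.26 against 0.01 over all genes, but 0 were called in limma, 5 had an unadjusted p under 0.05, and 593 genes in all were called. The 6 called members kept their sign in that fit, with Kmt2c at -2.21 ± 0.73 (adjusted p = 0.107 in limma), Nsd1 at -1.95 ± 0.66 and Kdm7a at 0.42 ± 0.30. Without the 5 arrays of lowest upper quartile 9 members were called, and without deleted LSK K1272, which enters only through the shared spread, 11 were.

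**Figure D2:**
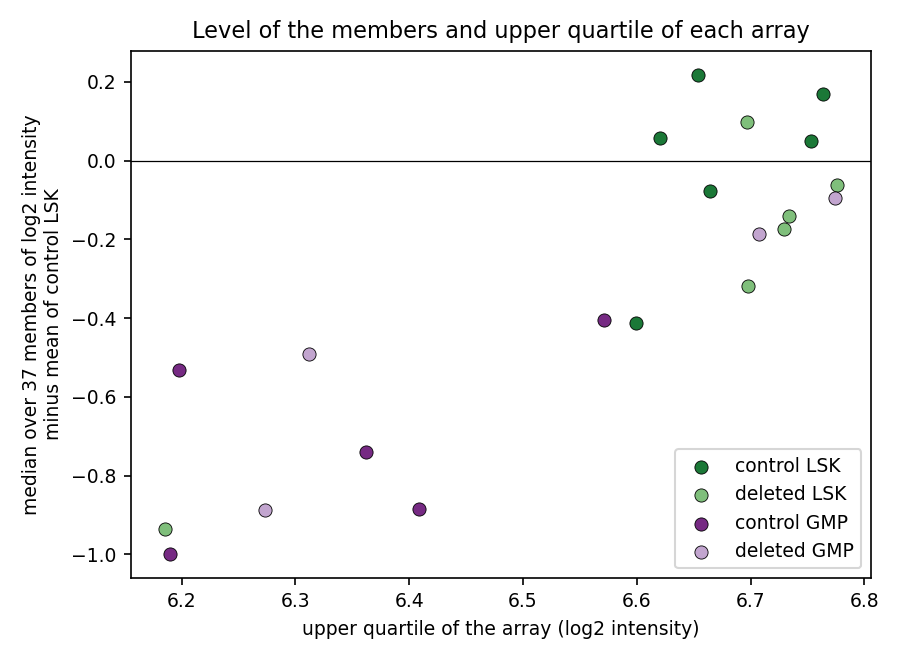
Median over the 37 members of the log2 intensity minus the control LSK mean (vertical axis) against the upper quartile of the array in log2 intensity (horizontal axis), 1 point for each of 21 arrays, coloured by group. The 5 arrays with an upper quartile under 6.32 have medians from -0.49 to -0.999.

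**Figure D3:**
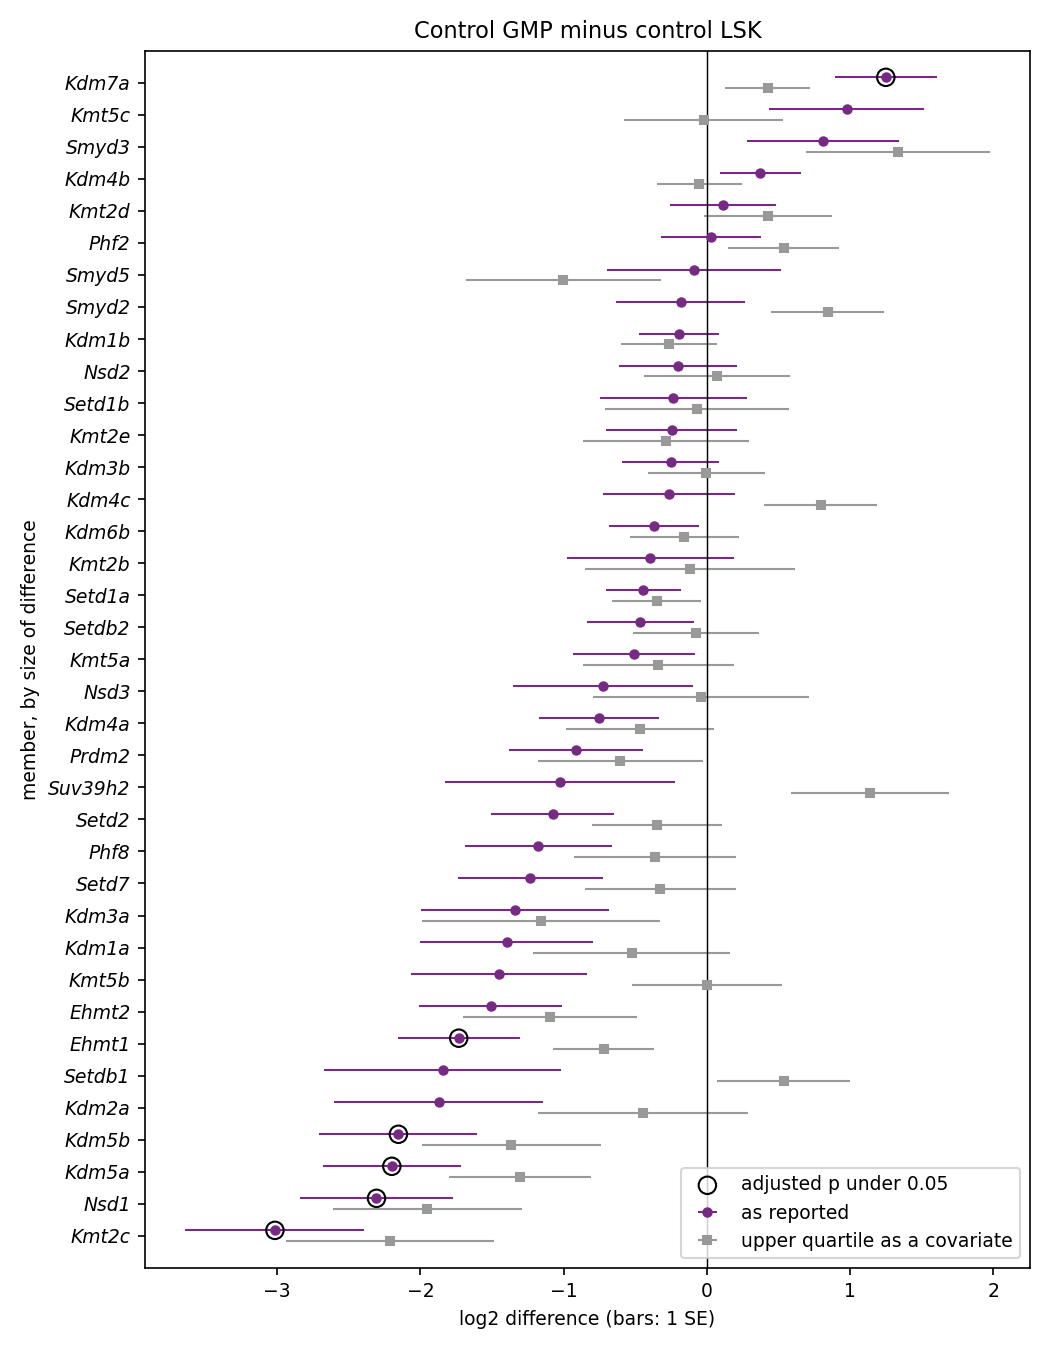
Log2 difference between control GMP and control LSK (horizontal axis, bars 1 SE) for each of the 37 members (vertical axis, ordered by size), as reported and with the upper quartile of the array as a covariate; circles mark an adjusted p under 0.05 in the reported fit. Most values move towards 0 with the covariate, and Kmt2c stays the lowest at -2.21.

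By role, the differences between the control cell types were uneven. All 6 H3K9 methyltransferase genes were lower in GMP, with a median log2 difference of -1.27, from -0.46 for Setdb2 to -1.84 for Setdb1, a partner of Trim28 in silencing of repeats, though with the upper quartile as a covariate Setdb1 and Suv39h2 were higher, at 0.54 and 1.14. Of these 6, Ehmt1 was called, and Suv39h2 and Prdm2 stood at -1.03 and -0.91. All 4 H3K36 genes were lower, from -0.20 for Nsd2 to -2.31 for Nsd1, though Nsd2 was higher with that covariate (0.07) and after a second quantile normalization (0.11). Nsd3 was at -0.72 and Setd2, which lays down H3K36 trimethylation during elongation, at -1.08 ± 0.43 (SE; limma adjusted p = 0.0942). Of the 7 H3K4 genes, the related Kmt2e included, 6 were lower and 1 was called. Next to Kmt2c stood Setd7, a monomethyltransferase, at -1.23, and Kmt2d, the close paralogue of Kmt2c, was at 0.11 ± 0.37. Kmt2b, Setd1a, Setd1b and Kmt2e lay between -0.23 and -0.44. All 5 other probe sets of Kmt2e were lower as well, 4 of 5 at an unadjusted p under 0.05 in limma. Of the 3 H4K20 genes Kmt5b and Kmt5a were lower (-1.45 and -0.51) and Kmt5c higher (0.98), with none called; with the covariate Kmt5b was at 0.00 and Kmt5c at -0.02. The SMYD genes Smyd2, Smyd3 and Smyd5 stood at -0.18, 0.81 and -0.09, and Smyd2 was at 0.84 with the covariate and Smyd5 at 0.24 after a second quantile normalization. Among demethylases, Kdm1a, the subunit of the CoREST complex that removes H3K4 mono- and dimethylation, was at -1.40 ± 0.61 (-0.59 without control GMP K1603) and its relative Kdm1b at -0.20 ± 0.28. Of the 6 JmjC genes for H3K9 and H3K36, 5 were lower, with Kdm2a at -1.87 ± 0.73 (-0.92 without control GMP K1603), with Kdm4b at 0.37 ± 0.28, and none was called. Kdm3a, Kdm4a, Kdm4c and Kdm3b stood at -1.34, -0.75, -0.26 and -0.25; with the covariate Kdm4c was at 0.80 and Kdm4b at -0.05, and after a second quantile normalization Kdm3b was at 0.04. Phf8, the gene of an H3K9 demethylase of the PHF family, was at -1.18 ± 0.52, Kdm6b at -0.37 and Phf2 at 0.03. None of the 2 other probe sets of Phf8 was lower, and none of the 2 others of Kdm6b. Over all members, 47 of 69 other probe sets had the sign of the probe set used. Leaving out 1 array moved the difference by over 1.5 times for 24 of 37 members and turned its sign for 9: Kmt2b, Kmt2d, Kmt2e, Setd1b, Nsd2, Smyd2, Smyd5, Kdm4c and Phf2. The spread between arrays was wide for this set: the median SD over members was 0.52 in control LSK and 0.97 in control GMP, against 0.35 and 0.51 over all genes.

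After deletion of Dot1l in GMP the set leaned upwards, but limma called 0 of 37 at an adjusted p under 0.05, as it did 0.143% of all genes. Of the 37, 24 were higher and 13 lower, with a median log2 difference of 0.35 against -0.20 over all genes, of which 65.7% were lower. The median over members was 0.17 without control GMP K1604, 0.23 without control GMP K1603 and 0.11 without deleted GMP K1272. Leaving out 1 array moved the difference by over 1.5 times for 25 of 37 members and turned its sign for 13. An unadjusted p under 0.05 was reached by 8 of 37, 5 higher and 3 lower, and by 13.9% of all genes. Higher were Nsd1, Kdm5a, Ehmt1, Kdm5b and Setd2, and lower Kdm6b, Kmt2b and Kdm7a. Only 1 of the 3 other probe sets of Kdm5b was higher. The control GMP arrays are part of the comparison between control cell types as well, so the same low control GMP values enter both. Marker genes of other cells moved with the genotype as well: 7 of 8 mature neutrophil markers were lower in deleted GMP, with mean levels of 7.73 to 8.12 on control and 6.79 to 7.73 on deleted arrays, and all 5 measured B cell markers, with 5.76 to 6.84 and 5.07 to 5.49. Their part in the members' values was not tested.

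Deleted GMP arrays are given in the order K1190, K1272, K1359 and K1421. Nsd1 read 11.19, 11.27, 10.12 and 11.42 there against the control GMP values above, a log2 difference of 1.97 ± 0.59 (SE; limma adjusted p = 0.187). K1359 lay inside the control range and the other 3 above it; all 3 other probe sets were higher as well, from 0.70 to 1.18. Kdm5a read 8.29, 7.99, 7.59 and 8.08, a difference of 1.71 ± 0.53 (limma adjusted p = 0.202), with K1359 alone just under the top control array. Of its 5 other probe sets 3 were higher and 2 lower, and with the mean of all its probe sets the difference was 0.54. Ehmt1 read 7.50, 7.38, 6.57 and 6.18, a difference of 1.33 ± 0.47 (limma adjusted p = 0.246), with K1421 inside the control range. Medians of deleted GMP and of control LSK were 11.23 and 11.29 for Nsd1, 8.04 and 8.50 for Kdm5a, and 6.98 and 7.31 for Ehmt1. For the other members called between the control cell types they were further apart or similar. They were 8.47 and 10.54 for Kmt2c, 7.76 and 8.80 for Kdm5b, and 6.72 and 6.42 for Kdm7a.

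Setd7 was higher in every deleted GMP array than in every control GMP array. It read 8.61, 8.71, 7.995 and 7.95 against 7.94, 6.31, 6.80, 7.22 and 7.71, though the nearest arrays nearly met. Such groups did not overlap, with deleted higher, for 1 of 37 members and 1.81% of all genes. The log2 difference was 1.12 ± 0.56 (SE; limma adjusted p = 0.373), and the second probe set of Setd7 gave 0.20 ± 0.61.

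Kdm6b, which encodes a demethylase of H3K27 trimethylation induced in myeloid cells by inflammatory signals, was the member of smallest p in deleted GMP. It read 6.88, 7.52, 6.14 and 6.75 against 8.64, 8.80, 7.58, 7.77 and 7.92 in control GMP (order of arrays as above), all 4 below all 5. The log2 difference was -1.32 ± 0.35 (SE), 2.5-fold, with an adjusted p of 0.154 in limma. Its probe set is of the _x_at kind, whose probes can match other transcripts, and its 2 dimmer probe sets gave -0.46 ± 0.45 and -0.62 ± 0.45. Phf2, the gene of an H3K9 demethylase of the PHF family, also did not overlap, at 9.02, 9.16, 9.08 and 9.34 against 9.44 to 10.63. Its difference was -0.72 ± 0.39 (limma adjusted p = 0.392). Groups did not overlap, with deleted lower, for 2 of 37 members and 2.97% of all genes. Kmt2b, an H3K4 methyltransferase with a CXXC domain for unmethylated CpG, stood at -1.72 ± 0.65 and Kdm7a at -0.98 ± 0.40, and for both the groups overlapped; only 1 of the 4 other Kdm7a probe sets was lower.

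These values depended on which arrays were in the fit. With the upper quartile as a covariate the set in deleted GMP stood at 18 higher and 19 lower and a median of -0.06 against -0.07 over all genes. Without the 5 arrays of lowest upper quartile, 5 members were called in limma: Ehmt1, Setd7 and Nsd2 higher and Kdm7a and Kmt2b lower. That fit keeps of deleted GMP only K1190 and K1272, the closest pair of arrays, and 3377 of all genes were called in it. With these K1190 and K1272 averaged into one array the median over members was 0.17 and 0 were called.

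**Figure D4:**
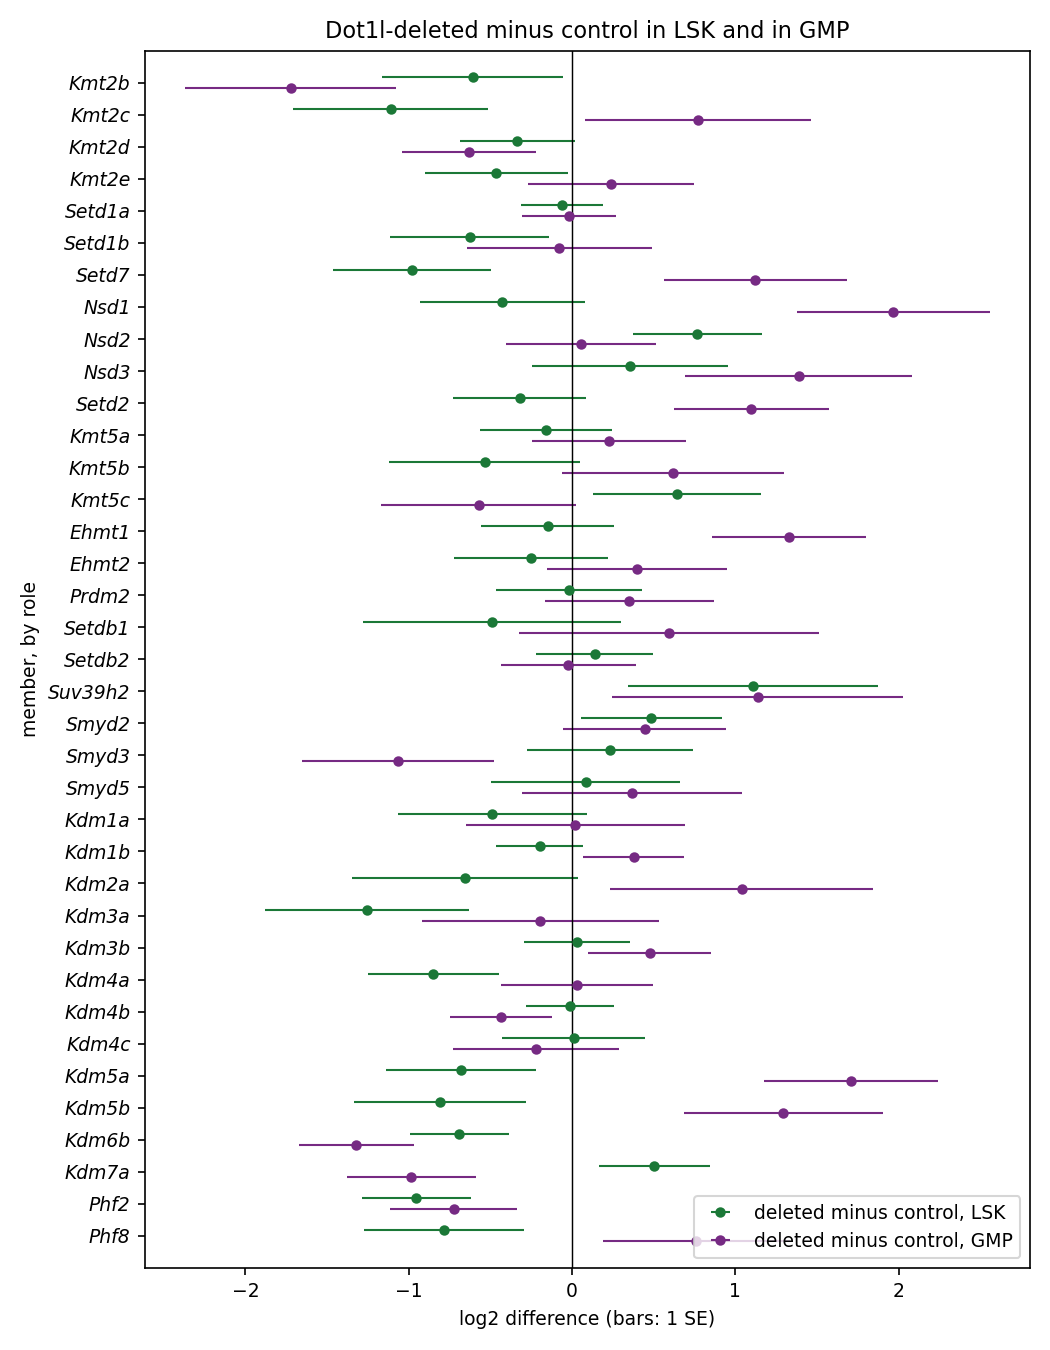
Log2 difference between deleted and control cells (horizontal axis, bars 1 SE) for each of the 37 members (vertical axis, by role) in LSK and in GMP. In LSK 26 of 37 lie below 0 and in GMP 24 of 37 above it; limma called none in either.

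In deleted LSK the set was slightly lower by the probe sets used, and limma called 0 of 37 as it called 0% of all genes. Of the 37, 26 were lower, with a median log2 difference of -0.32 against 0.06 over all genes, of which 41.6% were lower. The members had 69 other probe sets, and only 38 of them had the sign of the probe set used. In the GMP deletion 46 of 69 did. An unadjusted p under 0.05 was reached by 3 of 37, all lower (Phf2, Kdm6b and Kdm4a), and by 5.61% of all genes. Leaving out 1 array moved the difference by over 1.5 times for 33 of 37 members and turned its sign for 11. All 7 genes of the H3K4 methyltransferase class, the related Kmt2e included, were lower, from -0.06 for Setd1a to -1.11 for Kmt2c, with a median of -0.61. Setd1a, however, was at 0.01 without K1272 and after a second quantile normalization, and at 0.07 without K1359. The 3 SMYD genes were higher, from 0.08 to 0.48, though Smyd5 was at -0.03 with the upper quartile as a covariate at -0.01 without K1272 and at -0.21 without K1359.

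Phf2 had the smallest p. It read 9.31, 9.94 and 10.16 (lowest, median, highest) in control LSK and 7.03, 9.09 and 9.70 in deleted LSK, where 7.03 is array K1272. The difference was -0.95 ± 0.34 (SE; limma adjusted p = 0.642), and -0.58 ± 0.21 without that array. Of its 3 other probe sets 2 were lower. Kdm6b read 8.01, 8.50 and 9.14 in control and 7.11, 7.59 and 8.82 in deleted LSK, a difference of -0.69 ± 0.30 (limma adjusted p = 0.848) that was -0.78 ± 0.31 without K1272. Its other probe sets gave 0.10 ± 0.39 and 0.31 ± 0.39, of the opposite sign.

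Setd7 in LSK rested largely on one array. It read 7.72, 8.62 and 9.11 in control and 4.74, 7.82 and 8.68 in deleted LSK, with 4.74 on K1272. The difference was -0.98 ± 0.48 (SE; limma adjusted p = 0.899), and -0.44 ± 0.31 without K1272. Kdm4a, a demethylase gene for H3K9 and H3K36 trimethylation, read 5.76, 6.84 and 8.81 in control and 5.31, 6.42 and 6.64 in deleted LSK, a difference of -0.85 ± 0.40 (limma adjusted p = 0.887) that was -0.49 without the highest control array, K1553. Nsd2, an H3K36 dimethyltransferase gene, was the one member whose groups did not overlap: 6.15, 7.04 and 7.09 in control against 7.10, 7.55 and 8.19 in deleted LSK, where 0.187% of all genes did not overlap with deleted higher. Its difference was 0.77 ± 0.40 (limma adjusted p = 0.934), and it was chosen for mention after its values were seen. Of its 4 other probe sets 1 was higher, at 0.49, and 3 were lower, the lowest at -0.12. Without K1272 the lean of the set in LSK was smaller, with 23 lower and a median of -0.17 against -0.03 over all genes, and 0 called. The LSK markers moved with the genotype too: all 8 measured were lower in deleted LSK, 6 of 8 at an unadjusted p under 0.05. So were all 8 mature neutrophil markers, 7 of 8 at that level, with means of 7.51 to 11.85 on control and 5.80 to 7.67 on deleted LSK arrays. The 7 measured GMP markers were all higher in deleted LSK, with a median of 0.79, 3 of 7 at that level. Deleted LSK K1359 stood apart here, with a mean of 9.05 for the LSK markers, inside the control range, against 4.65 to 7.85 on the other 5, and the lowest mean for the GMP markers, 7.38; without it 26 of 37 members were lower, with a median of -0.38. The part of these lists in the members' values was not tested.

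**Figure D5:**
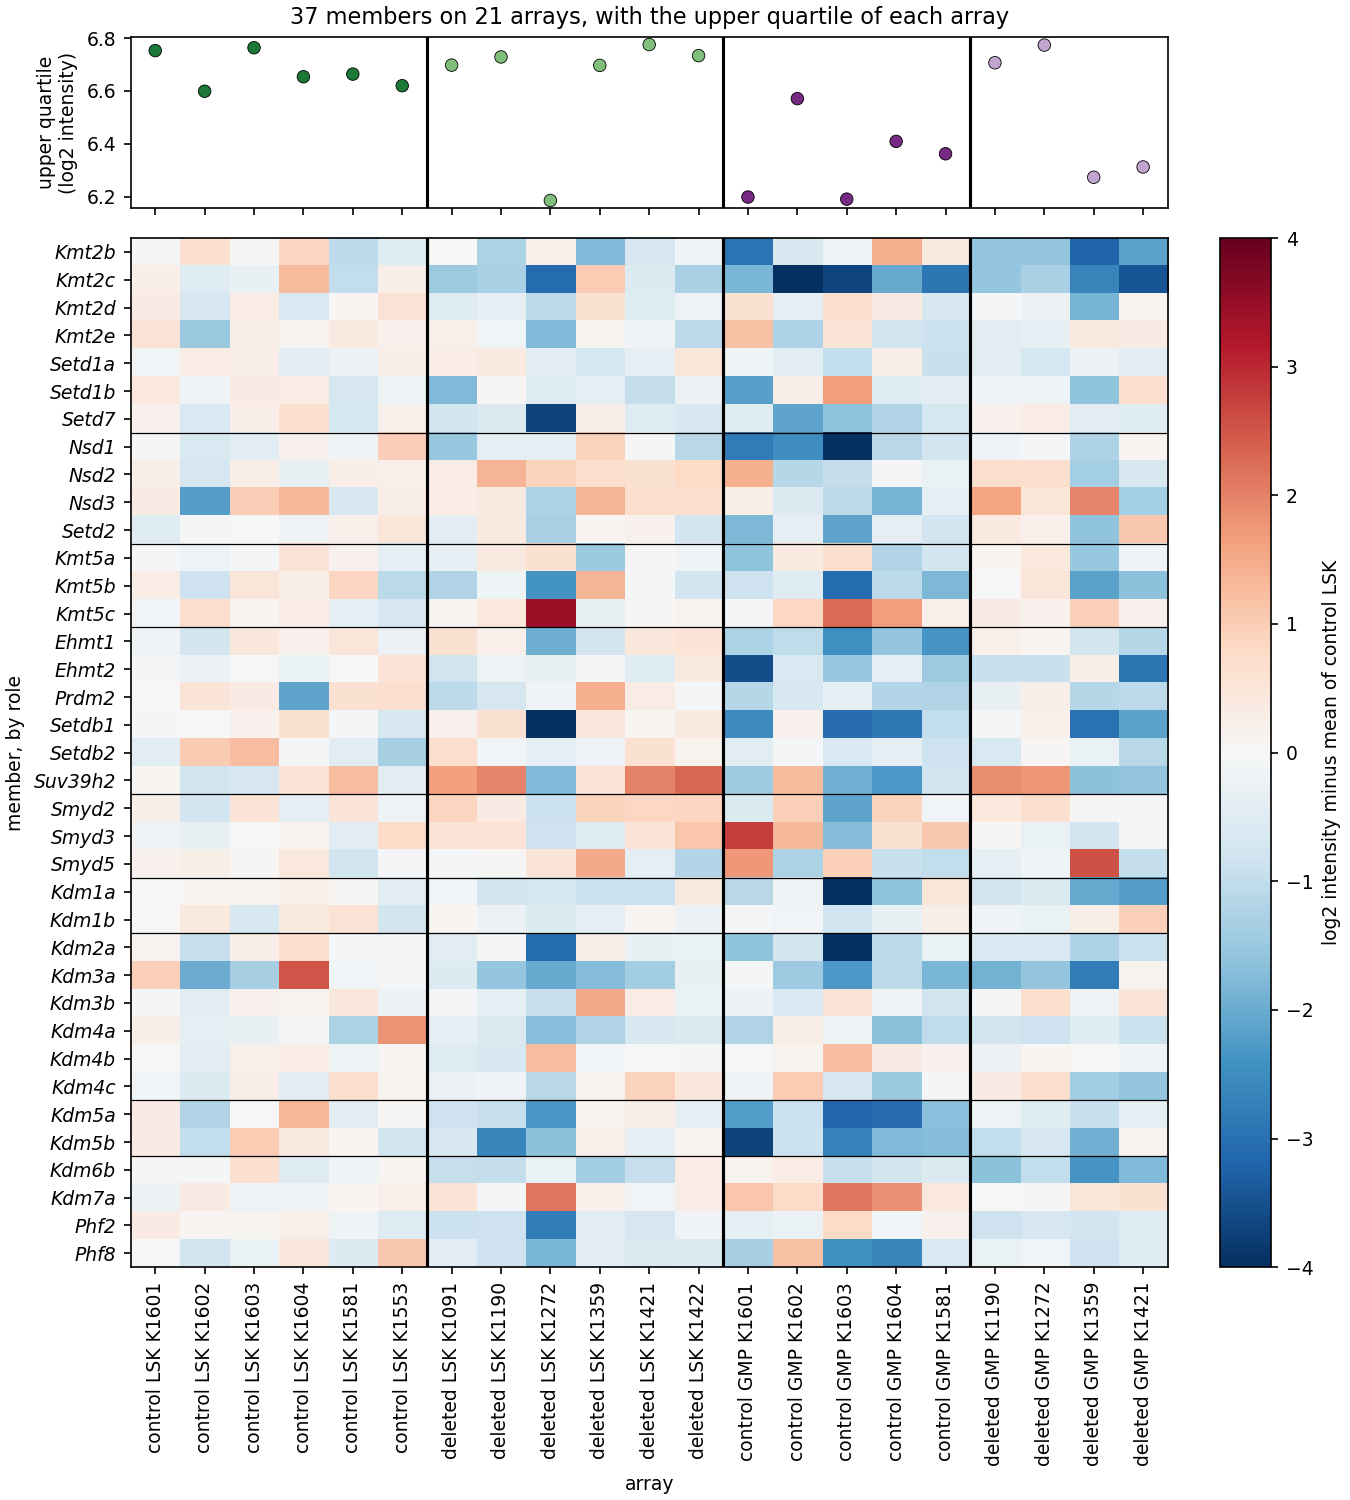
Log2 intensity of each of the 37 members (rows, by role) on each of 21 arrays (columns) minus the mean of control LSK, from blue (lower) to red (higher), with the upper quartile of each array in log2 intensity above. Deleted LSK K1272 and control GMP K1603 are blue for most members, with medians of -0.94 and -0.999.

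The effects of deletion differed between the cell types for no member by the test of the difference itself. Limma called 0 of 37 and 0.0330% of all genes for the difference of the effects, GMP minus LSK, with a median of 0.51 over members and -0.26 over all genes. An unadjusted p under 0.05 was reached by 7 of 37 (6 higher, 1 lower) and by 13.6% of all genes. The members of smallest p are given. Kdm5a had -0.68 in LSK and 1.71 in GMP, a difference of 2.39 ± 0.71 (SE; limma adjusted p = 0.211). All 5 other probe sets of Kdm5a were higher in deleted LSK, 3 of 5 had a difference of effects of the same sign, and with the mean of its probe sets it was 0.50. Nsd1 had -0.43 and 1.97, a difference of 2.39 ± 0.78 (limma adjusted p = 0.255), with all 3 other probe sets of the same sign. Setd7 had -0.98 and 1.12, a difference of 2.10 ± 0.74 that was 1.56 ± 0.46 without deleted LSK K1272. Kdm7a had 0.50 and -0.98, a difference of -1.49 ± 0.52 that was -1.16 ± 0.39 without it and -0.10 with the mean of all its probe sets, 2 of the 4 others having the opposite sign. Kdm5b, of larger p, stood at 2.10 ± 0.81 and Kmt2c at 1.88 ± 0.91. A p that missed the threshold does not show equal effects: the 95% interval of the difference reached beyond 1 log2 unit for 36 of 37 members. For Setd7 it ran from 0.56 to 3.64 and for Kdm5a from 0.92 to 3.86. These genes were chosen by their small p and the intervals are not adjusted for the number of genes, so they do not show a difference.

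In cells without Dot1l, the same comparison of GMP with LSK gave a smaller lean, which was not seen in every fit. Of the 37, 24 were lower and 13 higher in deleted GMP than in deleted LSK, with a median of -0.22 against 0.01 over all genes, and limma called 0, against 0.143% of all genes. An unadjusted p under 0.05 was reached by Kdm6b and Kmt2b alone, 2 of 37, and by 7.28% of all genes. The 6 members called between control GMP and control LSK stood here at -1.13 ± 0.67 (SE) for Kmt2c, 0.19 ± 0.51 for Kdm5a, 0.09 ± 0.57 for Nsd1, -0.25 ± 0.46 for Ehmt1, -0.05 ± 0.59 for Kdm5b and -0.24 ± 0.38 for Kdm7a. Whether these differ from the values in control cells is the test of the difference given above, which called none. Without deleted LSK K1272 the median was -0.34 against 0.10 over all genes. With the upper quartile as a covariate 19 were lower and 18 higher, with a median of -0.06 against -0.086 over all genes. Without the 5 arrays of lowest upper quartile 22 were lower and 15 higher, with a median of -0.092 against -0.086. Leaving out 1 array moved the difference by over 1.5 times for 33 of 37 members and turned its sign for 18.

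The arrays limited what could be seen. The half-width of the 95% interval ranged from 0.52 to 1.65 log2 units over members for the LSK deletion, with a median of 0.96, and from 0.60 to 1.91 for the GMP deletion, with a median of 1.11. The interval lay wholly within 1 log2 unit either way for 8 of 37 members in LSK and 3 of 37 in GMP. Setd1a, the catalytic subunit of a COMPASS complex that trimethylates H3K4, was the best bounded, from -0.58 to 0.46 in LSK and from -0.62 to 0.58 in GMP.

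Partner genes of these enzymes were counted in the same way. Of all genes 34.2% were lower in control GMP and 4.95% were called lower, which is the background of each count here. Of 14 genes of the COMPASS core and MLL partners, 12 were lower in control GMP and 2 fell by the test: Paxip1, a Kmt2c and Kmt2d partner, at -2.54 ± 0.71 (SE; limma adjusted p = 0.0268) and Bod1l at -1.68 ± 0.53. Hcfc2 of the same list was at -0.05 ± 0.55 between control cells and at 2.63 ± 0.61 in deleted against control GMP (limma adjusted p = 0.0949). Of 10 measured CoREST partners of Kdm1a, 7 were lower and Rcor3 fell, at -1.68 ± 0.47. The transcription factor genes Gfi1 and Gfi1b, which recruit Kdm1a, stood at 0.91 ± 0.62 and -1.25 ± 0.53. Of 11 readers and cofactors of H3K9 methylation, 9 were lower and 2 fell, the HP1 alpha gene Cbx5 and the Setdb1 cofactor gene Atf7ip, while Cbx3 was at 0.71 ± 0.26.

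Cbx5 was the one gene of these lists called in a deletion. In the GMP deletion 26 of all genes (0.143%) were called, and 9 with deleted GMP K1190 and K1272 averaged. Cbx5 is given here from the reported fit and its brightest probe set only. It was lower in control GMP than control LSK, at -2.00 ± 0.36 (SE; limma adjusted p = 0.00189), and higher in deleted than in control GMP, at 2.11 ± 0.40 (limma adjusted p = 0.042). Both comparisons use the control GMP arrays. In LSK its deletion difference was 0.28 ± 0.34, and the difference of effects was 1.83 ± 0.53 (limma adjusted p = 0.207).

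Of 10 histone acetyltransferase genes 7 were lower in control GMP and 3 fell, against 34.2% lower and 4.95% called lower over all genes: Kat2b at -2.05 ± 0.42 (SE), Kat6a at -2.14 ± 0.60 and Kat6b at -1.32 ± 0.37. Of the arginine methyltransferase genes 6 of 8 were higher in control GMP, with a median of 0.31 against 0.28 over all genes, and 1 fell, Prmt2, at -1.94 ± 0.60, beside Prmt3 at -1.36 ± 0.60 and Prmt8 at 0.77 ± 0.30. In deleted against control GMP the medians were 0.68 for the COMPASS list, 0.20 for CoREST, 0.66 for H3K9 readers, 0.36 for acetyltransferases and -0.08 for arginine methyltransferases, against -0.20 over all genes. With the upper quartile as a covariate the CoREST medians turned sign, to 0.05 between the control cell types and -0.23 in deleted GMP, and those of the other 4 lists did not in either comparison. Apart from Cbx5 none of these genes was called in either deletion or in the difference.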

How the data were processed

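RNA of the sorted cells was isolated with Trizol and RNeasy columns and hybridised to mouse arrays as biotinylated cRNA, per the labels' protocols. Intensities on a linear scale for 45101 probe sets, made with RMA per the submitters' processing notes, make up the authors' deposited table; no source used here gives its version, a genome build or scan batches. Intensities were log2-transformed without a pseudocount and not normalized again. One gene symbol stood for 34958 probe sets, several for 932 and none for 9211; those with one gave 18194 genes, each by its brightest probe set. Newer member symbols were matched through RefSeq synonyms, and promoter windows came from RefSeq on GRCm38.p6.

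Groups came from the labels. limma 3.58.1 in R 4.3.3 fitted 4 group means over 21 arrays (eBayes), adjusted by Benjamini-Hochberg across all genes with a threshold of 0.05, for 5 comparisons; it was tested on simulated data. Precision is limited by how many arrays each group has. The members and lists were chosen with earlier results of these data known. Values per array are given for members called in any comparison and for the 4 of smallest p in each comparison about deletion; partner lists name their 3 genes of smallest p, and called genes. Alternatives were other normalizations, filters, probe sets, variances, array weights, samples and covariates, the K number of the titles as a block, and each array left out; leaving out the 5 arrays of lowest upper quartile was chosen after seeing the data.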

Additional observations from a re-analysis of the deposited data

Results flagged for a closer look

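In deleted LSK, array K1272 lay far from the other 5 arrays for 3 of the 10 members with values per array. Kdm7a read 8.61 there against 6.36 to 7.03 on the others, Phf2 read 7.03 against 8.99 to 9.70, and Setd7 read 4.74 against 7.71 to 8.68. The gap to the nearest array was 70.5%, 73.3% and 75.3% of the range of the group. In all, 40 groups of 4 to 6 arrays were examined in this way and these 3 stood out; chance gives about 1 in 20 groups. The same array had the lowest upper quartile of all 21, at 6.18, and the lowest mean of the LSK markers, at 4.65. Their part in these values was not tested.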

How the results depend on the processing

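The count of members called between control GMP and control LSK was 6 and moved with some settings: 13 with array quality weights, 10 with only these 2 groups in the fit, 0 with the upper quartile as a covariate, and 9 without the 5 arrays of lowest upper quartile. Leaving out single arrays gave 5 to 11, with 11 without deleted LSK K1272. With array quality weights the other counts, all 0 as reported, became 2 for the LSK deletion, 15 for the GMP deletion, 10 for the difference and 1 for deleted GMP against LSK; deleted GMP K1190, one of the closest pair, then weighed 8.89 and K1272 of deleted LSK 0.072. Without the 5 arrays of lowest upper quartile the GMP deletion gave 5 and the difference 1 (Setd7). No label says whether a shared K number in the titles marks the same mouse. Of 9 same-number pairs of arrays, 1 correlated above 0.1 in deviations from group means (range -0.397 to 0.272). Those deviations also carry traits of single arrays, such as deleted LSK K1272, so they cannot decide it. With the K number as a replicate block 1 member (Kmt2c) was called between the control cell types, against 6 without it. With no _s_at, _x_at or _a_at probe sets, Kdm6b in the LSK deletion turned to 0.10. Of 672 values of named members under alternatives, 640 kept their direction and their side of the threshold. Of the rest, 20 lost their call, 11 gained one and 1 turned sign. Most of the 672 belong to deletion results that were not called as reported and had no call to lose. All 20 lost calls were of the 6 members called between the control cell types. The Kdm7a call was lost in 9 of 38 settings. Where no cause is stated, the cause was not tested. Counts of 0 do not show that nothing changed, since with 4 to 6 arrays a group most intervals reach beyond 1 log2 unit.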
